A study of Mus musculus with 6 samples.

Results

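Interleukin 6, oncostatin M and leukemia inhibitory factor, the receptor chains that bind them, the transcription factor STAT3 and the inhibitors SOCS3 and SOCS1 were followed at the RNA level in ear skin bitten by ticks. The genes were Il6, Osm, Lif, Il6ra, Il6st, Osmr, Lifr, Stat3, Socs3 and Socs1. They were matched by gene symbol, and all 10 were found among the 15667 genes measured. Female littermates aged 7 to 8 weeks were compared in 2 groups. WT mice were Adipo+/+, with an intact adiponectin gene (n = 3), and KO mice carried 2 copies of a null allele of it (n = 3), both from the B6;129-Adipoq tm1Chan/J line. Every mouse had been fed on by 10 ticks for 48 h, and 1 punch of the bitten ear skin was sequenced per mouse. Unbitten skin was not analysed here, so no value shows what the bite itself did. The null allele is carried in the germline, so every cell of a KO mouse has it.

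Cytokines of the IL-6 family signal through the shared receptor chain gp130, the product of Il6st. IL-6 binds its own receptor chain (Il6ra) before gp130, whereas oncostatin M and leukemia inhibitory factor bring gp130 together with the chains of Osmr or Lifr. The receptors activate JAK kinases, which phosphorylate STAT3, and STAT3 induces Socs3, whose product binds gp130 and JAK and ends the signal. In skin, these cytokines are made by infiltrating leukocytes, keratinocytes and fibroblasts after injury. Phosphorylated STAT3 is not visible in RNA, so transcripts of ligands and of responding genes are what these libraries hold.

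The promoters of the SOCS genes are shown because the Socs3 transcript varied with the ligand transcripts across libraries, as given further on, while Socs1 is the other inhibitor of the group. RefSeq sequences (GRCm38.p6) were found for 9 of the 10 genes, as 10 windows of 250 bases before to 50 bases after a start, with 2 windows for Lifr and none for Osm. The windows were searched on both strands for TTCNNNGAA, the general STAT site, and for its stricter form TTCCNGGAA, which is contained in the first and, like it, reads the same on both strands. A match to TTCNNNGAA was found in 1 of the 10 windows, that of Socs3, against 8.30% of the 32851 promoters of all genes, so the share is near the background. TTCCNGGAA was found in 0 of the 10 windows, against 1.15% of promoters. The Socs3 match starts 154 bases upstream of the start used and lies at chr11:117969512-117969520. Socs3 is also annotated from further upstream, at chr11:117970336 in RefSeq and chr11:117970047 in GENCODE. Its window thus falls within the annotated gene, as do those of Osmr and Lifr. Sequence before these upstream starts was not searched. The 250 bases before each start are printed 5′ to 3′ on the minus strand, chr11:117969367-117969616 for Socs3 and chr16:10785537-10785786 for Socs1, with the match in capitals.
Socs3: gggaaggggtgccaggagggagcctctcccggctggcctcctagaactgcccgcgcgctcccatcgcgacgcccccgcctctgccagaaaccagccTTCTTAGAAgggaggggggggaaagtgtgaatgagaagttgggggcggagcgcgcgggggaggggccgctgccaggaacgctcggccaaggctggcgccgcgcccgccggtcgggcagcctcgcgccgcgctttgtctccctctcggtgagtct
Socs1: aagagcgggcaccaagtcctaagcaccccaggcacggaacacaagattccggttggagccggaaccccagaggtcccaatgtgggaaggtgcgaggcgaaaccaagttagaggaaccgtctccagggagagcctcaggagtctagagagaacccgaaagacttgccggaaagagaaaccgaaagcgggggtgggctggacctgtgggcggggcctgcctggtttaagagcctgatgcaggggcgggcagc
A match of letters is not a bound site, and no binding was measured in these libraries.

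Values are counts per 1000000 reads (CPM), and the libraries held an implied 3402906 to 6587678 reads, at which 3 reads equal 0.455 to 0.882 CPM. Adipoq, the deleted gene, was at 30.5, 63.7 and 49.6 CPM in the WT replicates. In the KO replicates it was at the offset of 0.0001 CPM, 0.561 CPM and the offset again (log2 fold change -6.17, adjusted p = 0.00322, limma), so the genotype labels held. The tissue had high summed levels of keratinocyte markers, 21162 to 31686 CPM in WT, against 27334 to 39699 CPM in KO. Hair follicle markers set the libraries apart: their summed level was 12.3 CPM in WT replicate 1, 17.7 CPM in WT replicate 2 and 22678 CPM in WT replicate 3, against 940 to 9044 CPM in KO. All 7 adipocyte markers, Adipoq among them, and all 8 skeletal muscle markers were lower on average in KO, 3 of each list at an unadjusted p below 0.05. The part of these differences in the results was not tested.

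No gene of the group passed a test of KO against WT. At an adjusted p below 0.05 (limma, Benjamini-Hochberg over the 14306 genes tested), 0 of the 10 were called, beside 0.0140% of all genes tested, which is 2 genes. At an unadjusted p below 0.05, 0 of the 10 were called, beside 2.88% of all genes tested, and the smallest p of the group was that of Osmr. The 3 KO values lay all above or all below the 3 WT values for 0 of the 10, beside 7.84% of all genes tested. The log2 fold change was positive for 5 genes and negative for 5, with a median of -0.0098, beside -0.03 over all genes tested. All 10 passed the minimum of a mean of 1 CPM over the 6 libraries, yet Il6 and Osm were under 1 CPM in 2 libraries each. Bulk skin cannot tell fewer cells of a type from less RNA per cell, which holds for every value here.

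The ligand transcripts were scarce and varied widely between mice of the same genotype. Il6 (chr5:30013114-30019975, GRCm38, plus strand) encodes interleukin 6, the cytokine that drives the acute-phase response. It was at 3.63, 1.42 and 0.165 CPM in WT replicates 1, 2 and 3 and at 3.03, 1.40 and 0.294 CPM in KO replicates 1, 2 and 3. These levels came from 15, 7 and 1 implied reads in WT, against 20, 5 and 1 in KO. Each genotype thus had 1 higher, 1 intermediate and 1 very low library, and the groups overlapped throughout. The means were 1.74 ± 1.75 CPM in WT, against 1.58 ± 1.38 CPM in KO (SD, n = 3 each). The log2 fold change of KO over WT, on log2(CPM + 0.5), was 0.00 (SE 0.79, 95% interval -1.82 to 1.83, adjusted p = 0.999), so a difference of more than 3-fold either way was within the interval.

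Osm (chr11:4236785-4241026, plus strand) encodes oncostatin M, which is made mainly by myeloid and T cells. It was at 10.2, 2.24 and 0.165 CPM in the WT replicates, from 42, 11 and 1 implied reads, and at 2.43, 2.52 and 0.881 CPM in the KO replicates, from 16, 9 and 3. WT replicate 1 was the highest of all libraries and WT replicate 3 the lowest, with the KO libraries between them. The log2 fold change was -0.22 (SE 0.92, 95% interval -2.35 to 1.91, adjusted p = 0.998). Within WT, replicate 1 exceeded replicate 3 by 61.7-fold per depth, a ratio that rests on 42 reads against 1 (95% counting interval 10.5 to 2493).

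Lif, the neighbour of Osm (chr11:4257568-4272514, plus strand), encodes leukemia inhibitory factor. The genes lie 16541 bases apart with no other gene of the table between them. Lif was at 2.90, 1.83 and 1.15 CPM in the WT replicates, against 2.58, 1.68 and 2.06 CPM in the KO replicates, a narrower spread than that of Osm. The KO values lay within the WT range, and the log2 fold change was 0.13 (SE 0.39, 95% interval -0.78 to 1.03).

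**Figure D1:**
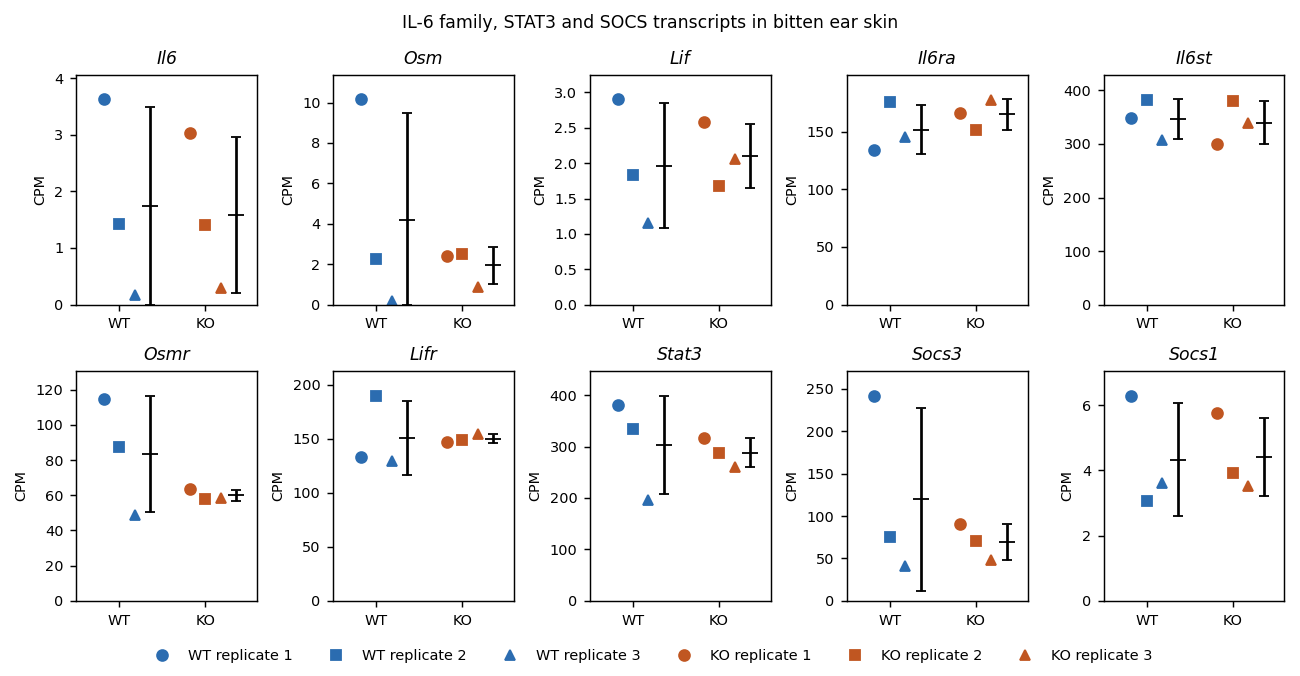
Level in CPM (vertical axes, from 0, with a scale for each gene) of the 10 genes in WT and KO libraries, with a symbol for each replicate and the mean ± SD at the right of each group, where lower bars that would pass below 0 stop at 0. The groups overlap for every gene, and WT replicate 1 is the highest library for 7 of the 10.

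The receptor chains were abundant and steadier. Il6st (chr13:112464070-112506860, plus strand), which encodes gp130, was at 349, 382 and 307 CPM in the WT replicates, against 300.1, 381 and 339 CPM in the KO replicates. Its log2 fold change was -0.03 (SE 0.13, 95% interval -0.32 to 0.27). Il6ra (chr3:89869324-89913196, minus strand), the ligand-binding chain for IL-6, was at 134, 176 and 146 CPM in WT, against 166, 151 and 178 CPM in KO, with a log2 fold change of 0.13 (SE 0.13, 95% interval -0.17 to 0.42). For both genes the libraries of a genotype were as far apart as the genotypes. Lifr (chr15:7129572-7197489, plus strand), the chain shared by several ligands of the family, was at 133, 190 and 129 CPM in WT, against 147, 149 and 155 CPM in KO. WT replicate 2 stood highest, the KO values were close together, and the log2 fold change was 0.02 (SE 0.15, 95% interval -0.34 to 0.37).

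Osmr (chr15:6813577-6874313, minus strand) encodes the chain that pairs with gp130 for oncostatin M, and lies 255 kb from Lifr with no table gene between. It was at 114, 87.5 and 49.0 CPM in the WT replicates, against 63.4, 58.0 and 58.5 CPM in the KO replicates. WT replicates 1 and 2 were above every KO library and WT replicate 3 was below them all. The means were 83.6 ± 32.9 CPM in WT, against 59.96 ± 3.0 CPM in KO, and the log2 fold change was -0.39 (SE 0.28, 95% interval -1.03 to 0.24, adjusted p = 0.998). The size rested on single libraries: it was -0.74 without WT replicate 3 (SE 0.15, unadjusted p below 0.05, adjusted p = 0.214) and -0.13 without WT replicate 1. It was -0.092 when the hair follicle score was a covariate.

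Stat3 (chr11:100886806-100939540, minus strand), the transcription factor on which the family converges and itself a STAT3-responsive gene, was at 381, 333 and 197 CPM in the WT replicates, against 317, 288 and 261 CPM in the KO replicates. All 3 KO values lay within the WT range. The log2 fold change was -0.02 (SE 0.23, 95% interval -0.56 to 0.51), and without WT replicate 3 it was -0.31 (unadjusted p below 0.05, adjusted p = 0.976).

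Socs3 (chr11:117966087-117969366, minus strand), the feedback inhibitor of gp130 signaling, showed the widest range of the well-counted genes. It was at 242, 75.9 and 41.1 CPM in the WT replicates, against 90.6, 70.6 and 48.2 CPM in the KO replicates, from 164 to 999 implied reads a library. WT replicate 1 was far above every other library, and the other WT values fell within or just below the KO range. The means were 120 ± 107 CPM in WT, against 69.8 ± 21.2 CPM in KO, with a log2 fold change of -0.43 (SE 0.57, 95% interval -1.75 to 0.90, adjusted p = 0.998). The direction rested on single libraries: the log2 fold change was 0.27 without WT replicate 1 and -0.999 without WT replicate 3 (unadjusted p below 0.05, adjusted p = 0.997).

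Socs1 (chr16:10783809-10785536, minus strand), an inhibitor best known for restraining interferon signaling, was at 6.29, 3.05 and 3.63 CPM in the WT replicates, against 5.77, 3.92 and 3.53 CPM in the KO replicates. Replicate 1 was highest in both genotypes, and the log2 fold change was 0.05 (SE 0.34, 95% interval -0.74 to 0.85). Socs1 lies 12.4 Mb from Adipoq on chromosome 16.

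**Figure D2:**
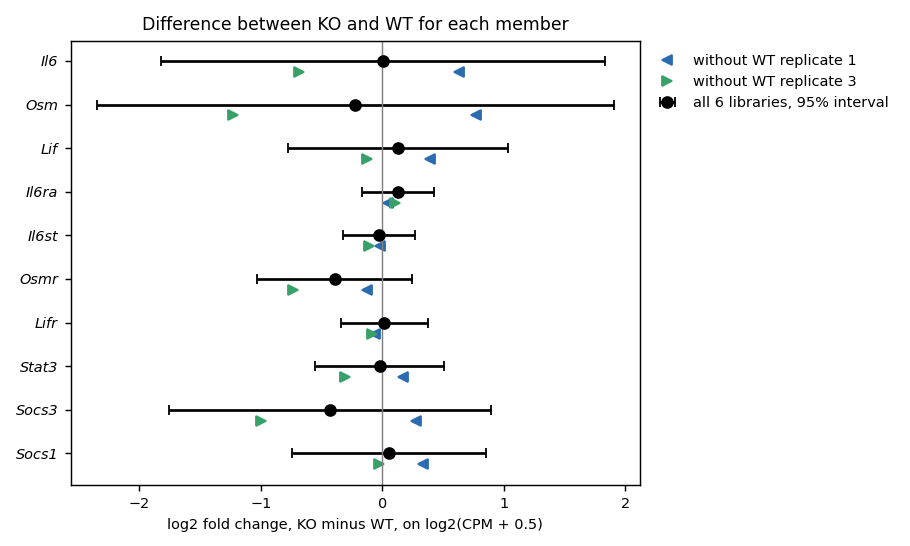
Log2 fold change of KO over WT on log2(CPM + 0.5) for each gene (horizontal axis), with its 95% interval from all 6 libraries (black) and the value without WT replicate 1 or without WT replicate 3 (triangles). Every interval crosses 0, and for Il6, Osm, Lif, Stat3, Socs3 and Socs1 the triangles fall on opposite sides of 0.

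Levels of different genes were compared per length, as the mean CPM per kb of annotated exon over the 6 libraries. The length merged the exons of all GENCODE transcripts of a gene, which can reach past the coordinates given above. Il6ra starts at chr3:89864059 in GENCODE, against 89869324 above, and Socs1 at chr16:10782240, against 10783809. Where such bases were not counted, the level per length is understated. The order below holds for these lengths only, and no other lengths were tried. Socs3 (32.8, range 14.2 to 83.6), Stat3 (31.1, range 20.6 to 39.9) and Il6st (30.9, range 27.0 to 34.4) were highest, and their ranges over libraries overlapped. Il6ra followed at 18.3 CPM per kb (15.5 to 20.6), then Lifr at 13.97 (11.98 to 17.6), with overlapping ranges, and Osmr at 5.93 (4.04 to 9.45). Socs1 (1.5), Osm (1.35), Il6 (0.683) and Lif (0.468) were lowest. The ranges of Osm and Il6 overlapped each other and those of Socs1 and Lif, whereas every library had more Socs1 than Lif per length. On average, each receptor chain was more abundant per length than any of the 3 ligands.

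The variation that these genes did show ran between libraries of the same genotype. WT replicate 1 had the highest level of 7 of the 10 genes (Il6, Osm, Lif, Osmr, Stat3, Socs3 and Socs1), whereas 18.0% of all genes tested were highest there. WT replicate 3 had the lowest level of 7 (Il6, Osm, Lif, Osmr, Lifr, Stat3 and Socs3), whereas 18.2% of all genes tested were lowest there. The SD of log2(CPM + 0.5) was larger in WT than in KO for 9 of the 10, beside 53.7% of all genes tested. For Socs3 the highest WT library was 5.89-fold the lowest, against 1.88-fold in KO, for Osmr 2.34-fold against 1.09-fold, and for Stat3 1.93-fold against 1.21-fold. A difference in spread between the genotypes was not tested, and with WT replicates 1 and 3 at the extremes these genes are not 10 separate pieces of evidence.

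**Figure D3:**
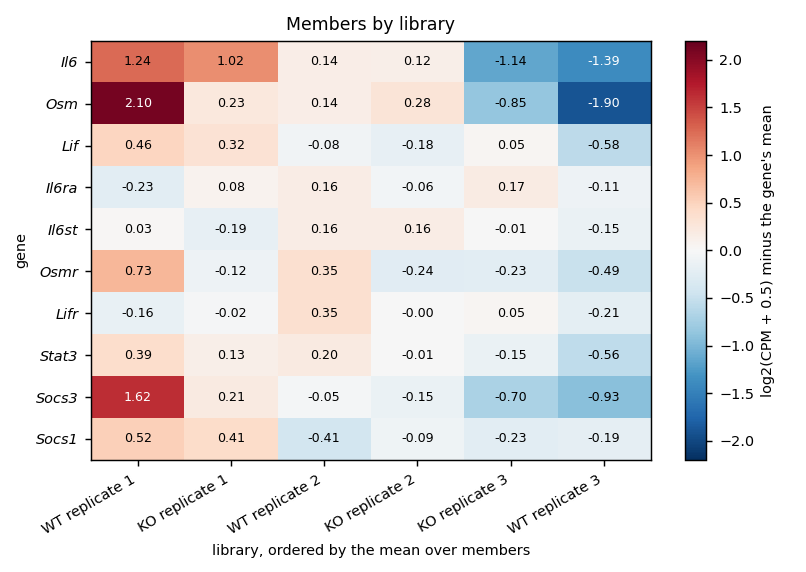
Each cell gives log2(CPM + 0.5) of a gene (rows) in a library (columns, ordered by the mean over the 10 genes) minus that gene's mean over the 6 libraries. WT replicate 1 and WT replicate 3 are at opposite ends of the order, with the KO libraries between them, and Il6ra, Il6st and Lifr vary least.

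Over the 6 libraries, the ligand transcripts varied with Socs3, as did many genes outside the group, given further on. The relation on log2(CPM + 0.5) was computed for Il6, Osm and Lif against Socs3 and for Osm against a neutrophil score, with exact two-sided permutation tests over pairings adjusted over the 4 relations. Il6 and Socs3 had the same order in all 6 libraries (Spearman rho = 1, exact p = 0.00278, the smallest that 6 libraries can give, adjusted p = 0.0111), with Pearson r = 0.88 (exact p = 0.00694, adjusted p = 0.0111). The Il6 reads do not resolve that whole order. WT replicate 3 and KO replicate 3 had 1 implied read each, so only depth set them apart. WT replicate 2 and KO replicate 2 were at 1.42 and 1.40 CPM, from 7 and 5 reads. Without WT replicate 3 and KO replicate 3, the libraries farthest from the median of Il6, r was 0.81. Osm and Socs3 had r = 0.96 (exact p = 0.00556, adjusted p = 0.0111) and rho = 0.829 (exact p = 0.0583, adjusted p = 0.0778), and without WT replicates 1 and 3 r was 0.91 and rho 0.4. Lif and Socs3 had r = 0.81 (exact p = 0.0444, adjusted p = 0.0444) and rho = 0.829 (exact p = 0.0583, adjusted p = 0.0778), and without WT replicates 1 and 3 r was 0.32 and rho 0.4. The order of the libraries by Osm or Lif and by Socs3 thus rested largely on those 2 libraries, and so did r for Lif. With the 4 libraries left, the exact p of r was 0.167 for Osm and 0.667 for Lif, and 4 libraries cannot take the p of a rank correlation below 0.0833. For Il6, leaving out WT replicate 3 gave r = 0.840, leaving out KO replicate 3 gave r = 0.864, and the exact p was 0.0917 in both cases. With 3 libraries a genotype, no value was computed within WT or within KO.

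Markers of neutrophils, the leukocytes that enter injured skin first, were likewise highest in WT replicate 1 and lowest in WT replicate 3. Their score, the mean log2(CPM + 0.5) of the 9 of 10 listed markers found in the table, was 4.92, 3.34 and 1.09 in the WT replicates, against 3.32, 2.74 and 2.30 in the KO replicates. Their summed level ranged from 32.0 to 599.8 CPM in WT and from 92.5 to 201 CPM in KO. Of the 8 tested, 6 were lower in KO on average and 0 had an unadjusted p below 0.05, Mmp8 was at the offset in KO replicate 3, and Ly6g was not among the genes of the table. Osm and the neutrophil score had r = 0.98 (exact p = 0.00833, adjusted p = 0.0111) and rho = 0.771 (exact p = 0.103, adjusted p = 0.103), and without WT replicates 1 and 3 r was 0.78 (exact p = 0.25) and rho 0.2, so this relation rested on those libraries too. Other leukocyte lists spread less as sums: the summed level was 512 to 1051 CPM in WT, against 535 to 1025 CPM in KO for macrophages and monocytes, 24.6 to 30.7 and 19.3 to 26.9 CPM for T cells, and 147 to 175 and 97.2 to 182 CPM for mast cells. The mast cell sum joined unlike members, seen after the values were known. Hdc was at 49.9, 9.36 and 1.65 CPM in the WT replicates, against 9.25, 8.69 and 5.88 CPM in KO. Kit and Ms4a2 were highest in WT replicate 3, and Cpa3, Mcpt4, Cma1 and Tpsb2 in replicate 2 of WT or KO. The part of neutrophil content, or of hair follicle content, in the levels of the ligands and Socs3 was not tested.

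**Figure D4:**
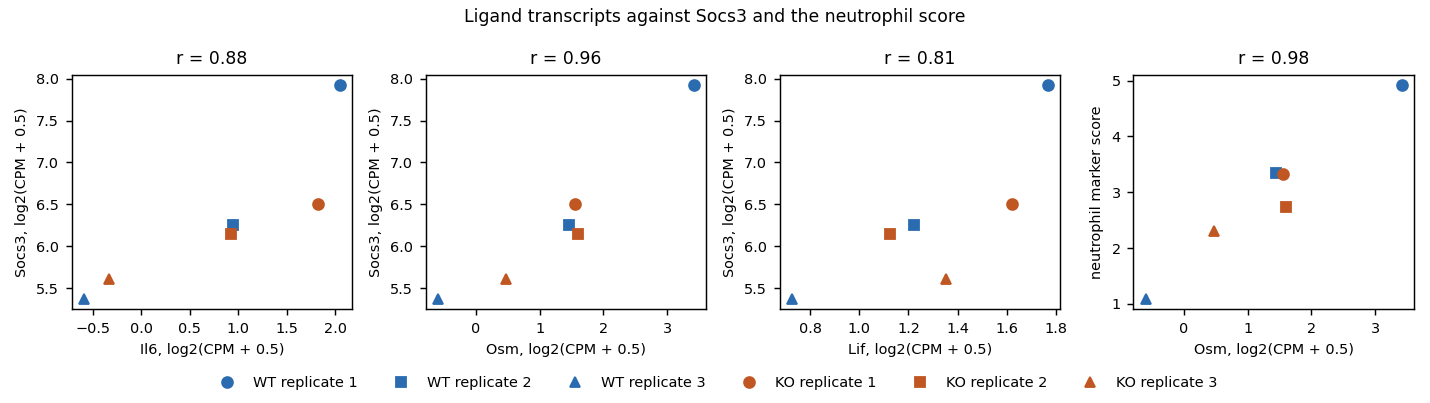
Log2(CPM + 0.5) of Il6, Osm and Lif against that of Socs3, and of Osm against the neutrophil marker score (right), with a point for each of the 6 libraries. WT replicate 1 is at the upper right and WT replicate 3 at the lower left of every panel, and Pearson r runs from 0.81 to 0.98.

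The genes whose levels were most like those of Socs3 over the 6 libraries, by Pearson r of log2(CPM + 0.5), were Lsg1 (0.994), Tnfaip2 (0.992), Nol12 (0.991), Serp1 (0.991) and Gmppb (0.989). For Osm they were Nars (0.997), Gm5512 (0.995), Csf2rb (0.993), Exosc7 (0.993) and Sbno2 (0.991). With 6 libraries such values were not particular to the group: of the 14306 genes tested, 288 had r above 0.9 with Socs3 and 282 with Osm. By r with Socs3, Osm had rank 51 among the genes tested, Il6 rank 377 and Lif rank 857. Within the group, r with Socs3 was 0.960 for Osm, 0.885 for Osmr, 0.881 for Il6, 0.861 for Stat3, 0.807 for Lif and 0.773 for Socs1. It was 0.193 for Il6st, -0.141 for Lifr and -0.515 for Il6ra, so the gp130, LIF and IL-6 receptor transcripts did not share the order. These are descriptions over 6 libraries that differ in depth and tissue makeup.

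Beyond the group, 54 other genes of the pathway were listed, of which 52 were in the table and 48 were tested. At an adjusted p below 0.05, 0 of the 48 were called by limma, and at an unadjusted p below 0.05, 1 was, or 2.08% beside 2.88% of all genes tested. The groups did not overlap for 4 of the 48, Jak2, Pias1, Pias3 and Mcl1, or 8.33% beside 7.84% of all genes tested. Both shares are near the background.

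Among 4 tested ligands of the family, 1 had a positive and 3 a negative log2 fold change, with a median of -0.41, or -0.21 without WT replicate 1. Clcf1, which encodes cardiotrophin-like cytokine factor 1 and was picked after its values were seen, was, like Socs3, highest in WT replicate 1 and lowest in WT replicate 3. It was at 32.7, 10.6 and 4.45 CPM in the WT replicates, against 5.61, 6.17 and 5.29 CPM in the KO replicates (log2 fold change -0.98, adjusted p = 0.998). Il11, which encodes a ligand linked to fibrosis and wound repair, lay under the 1 CPM minimum and was not tested. Its values, also picked after they were seen, were 0.726, 1.42 and 0.495 CPM in WT, from 3, 7 and 3 implied reads, and 0.304, 0.0001 (the offset) and 0.294 CPM in KO, from 2, 0 and 1. Pooled, 13 reads in WT against 3 in KO gave a ratio per depth of 3.89 of WT over KO (95% counting interval 1.07 to 21.3). This interval covers counting error only and leaves out the spread between mice, so it is not a test of genotype. Ebi3 was under the minimum too, and Il27 and Il31 were not among the genes of the table.

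The 3 tested receptor chains (Il11ra1, Cntfr and Il31ra) had a median log2 fold change of 0.11, with 2 positive and 1 negative, and the 4 JAK kinases one of 0.01, with 2 of each sign. Jak2, a kinase bound to gp130, was picked after its values were seen. It was at 66.8, 62.5 and 64.8 CPM in WT, against 61.9, 55.5 and 49.9 CPM in KO (log2 fold change -0.22, adjusted p = 0.998). Among 6 other STAT factors 5 were positive and 1 negative, with a median of 0.11, or 0.0020 without WT replicate 1 and 0.0026 without WT replicate 3. The most positive was Stat5a, a factor used by growth hormone and prolactin, at 0.19, or 0.057 without WT replicate 3. Among 6 other SOCS proteins 2 were positive and 4 negative (median -0.17), from Socs2, an inhibitor of growth hormone signaling, at 0.43 to Socs5 at -0.26. Single libraries moved these values: without KO replicate 1 the median was -0.035 and Socs5 was at -0.046, and Socs2 was at 0.69 without WT replicate 1 and 0.26 without WT replicate 3. Among 6 phosphatases and PIAS proteins 1 was positive and 5 were negative (median -0.07, or -0.0043 without KO replicate 3), from Pias3, an inhibitor of STAT3, at 0.24 to Pias1 at -0.12, or -0.077 without WT replicate 3. Pias3 was at 30.5, 29.6 and 27.5 CPM in WT, against 35.5, 31.9 and 36.1 CPM in KO (adjusted p = 0.998).

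Among 19 tested genes known to respond to STAT3, 3 had a positive and 16 a negative log2 fold change, with a median of -0.26. Over all genes tested, 8106 of 14306 were negative and the median was -0.03. For these 19 genes, dropping WT replicate 1 moved the median to -0.029, and dropping KO replicate 3 moved it to -0.11. Dropping WT replicate 3 moved it to -0.35, and it was -0.25 to -0.17 when any other library was dropped. The distance of their median from 0 thus rested on single libraries. A fit that had the neutrophil score as a covariate put it at -0.099. The -0.03 of all genes came from all 6 libraries, so it is not a background for these values. Only Mcl1, which encodes a survival factor of the BCL2 family, had an unadjusted p below 0.05: it was at 358, 355 and 296 CPM in the WT replicates, against 255, 289 and 258 CPM in the KO replicates. Every WT value was above every KO value, the log2 fold change was -0.33 (SE 0.11), and the adjusted p was 0.998. Under 6 of the 16 alternatives the unadjusted p was above 0.05, with log2 fold changes of -0.33 to -0.27: when the hair follicle score was a covariate, when limma was run without its trend, and when replicate 1 or 2 of WT or replicate 1 or 3 of KO was left out. The most negative value was that of Hp, which encodes the hemoglobin-binding acute-phase protein haptoglobin, at 240.4, 281 and 135 CPM in WT, against 92.7, 223 and 43.5 CPM in KO (log2 fold change -1.11, SE 0.54, adjusted p = 0.998), with overlapping groups. It moved to -0.54 without KO replicate 3, or to -1.71 when KO replicate 2 was left out, and its unadjusted p was below 0.05 without KO replicate 2, without WT replicate 3 and with a replicate block. The most positive was that of Il4ra, the receptor chain for IL-4 and IL-13, at 0.24, which was 0.67 without WT replicate 1 and -0.13 without WT replicate 3. Of the 19, 12 were highest in WT replicate 1, the library that also led for Il6, Osm, Lif and Socs3. The mean log2(CPM + 0.5) of the 19 was 6.29, 5.84 and 5.29 in the WT replicates, against 5.66, 5.74 and 5.26 in the KO replicates, with overlapping groups.

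**Figure D5:**
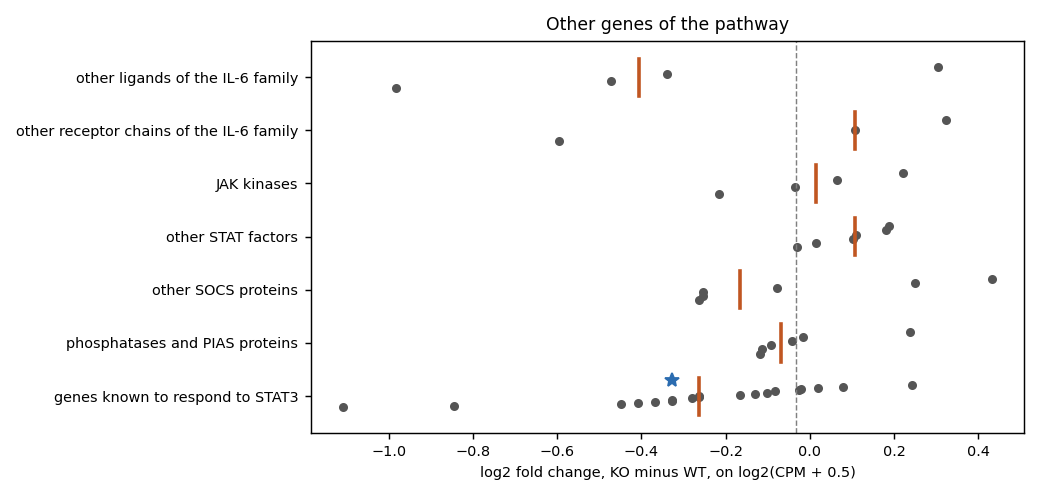
Log2 fold change of KO over WT on log2(CPM + 0.5) (horizontal axis) for each tested gene of the 7 pathway lists, with the list's median (orange bar), the median of all genes tested (dashed line) and a star for the 1 gene, Mcl1, with an unadjusted p below 0.05. Of the genes known to respond to STAT3, 16 of 19 lie left of 0, as do 8106 of all 14306 genes tested. The list's median of -0.26 is -0.029 without WT replicate 1 and -0.35 without WT replicate 3. None of the 48 genes passes the adjusted threshold, and the star is lost under 6 of 16 alternatives.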

How the data were processed

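The authors trimmed the reads, mapped them onto mm10 using STAR 2.7.3a and counted transcripts by expectation-maximization in Partek Flow, so a read may be split between genes. The deposited values are CPM: the authors divided gene counts by the library total and added an offset of 0.0001. Whether counting used strand is not stated in the sources used here. In each library, 91.6% to 92.9% of low values were within 0.1 of a whole read, so implied reads are estimates, a count model was not used, and counting intervals (exact) cover counting error only. All 6 columns of values were mapped to libraries.

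KO was compared with WT by limma 3.58.1 in R 4.3.3 (lmFit, eBayes with trend, two-sided) on log2(CPM + 0.5), in the 14306 genes that averaged 1 CPM or more (1361 were not tested), with Benjamini-Hochberg adjustment over these genes. The step was run on simulated data with independent noise of equal SD in both groups. Those data lack the shared variation between libraries and the larger WT spread seen here. They do not show how the test behaves on such data. An exact permutation test of 3 against 3 cannot go below p = 0.1. The labels do not say more of the replicates than their number, and the methods state separate mice.

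Exon lengths were taken from GENCODE M21 and promoters from RefSeq. The genes, lists and tests were chosen with earlier results of these data known. Named from the lists were genes at an unadjusted p below 0.05 and, in lists of 6 or more tested genes, the largest change in each direction, and for Socs3 and Osm the 5 genes with the highest r. One gene that this rule names is not reported here. Others are stated as picked after their values were seen. Alternatives were other pseudocounts, filters, scalings and covariates, a replicate block, and leaving out each library.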

Additional observations from a re-analysis of the deposited data

How the results depend on the processing

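No gene of the group passed an adjusted p below 0.05 under the main settings or any of the 16 alternatives, where the smallest adjusted p was 0.214. Of 156 fold changes of the group under these, 127 kept their sign and 29 did not. With a minimum of 5 CPM, Il6, Osm, Lif and Socs1 were not tested. At an unadjusted p below 0.05 the count in the group was 1 (Osmr) with the neutrophil score as a covariate and 0 to 3 when single libraries were left out, 3 (Osmr, Stat3 and Socs3) without WT replicate 3. Over the whole table it was 908 with the hair follicle score and 672 with the neutrophil score as a covariate, beside 412, and 311 to 710 when single libraries were left out, the highest without WT replicate 3. The adjusted count was 9 with the hair follicle score, beside 2, and 0 (without WT replicate 2) to 16 (without WT replicate 3) when single libraries were left out.

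For the log2 fold changes that turned, the cause was not tested. With the hair follicle score it was 0.60 for Osm, 0.026 for Il6st, 0.22 for Stat3 and 0.053 for Socs3. With the neutrophil score it was 0.12 for Osm and 0.060 for Stat3. With median-of-ratios scaling it was 0.0027 for Il6st and 0.0054 for Stat3, with quantile normalization 0.015 for Stat3, with a pseudocount of 2 -0.029 for Il6, and with one of 0.1 0.011 for Osm. When single libraries were left out, it ranged from -0.69 to 0.63 for Il6, -1.23 to 0.77 for Osm, -0.13 to 0.39 for Lif, -0.11 to 0.060 for Il6st, -0.084 to 0.19 for Lifr, -0.31 to 0.17 for Stat3, -0.999 to 0.27 for Socs3, -0.14 to 0.33 for Socs1 and -0.13 to 0.67 for Il4ra. It stayed positive for Il6ra (0.04 to 0.24) and negative for Osmr (-0.74 to -0.13).

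Without the 2 libraries farthest from the median, r with Socs3 was 0.81 for Il6, 0.91 for Osm and 0.32 for Lif, and r of Osm with the neutrophil score was 0.78. In an alternative chosen after seeing the data, single libraries were left out: r ranged from 0.840 to 0.989 for Il6, 0.935 to 0.983 for Osm and 0.717 to 0.902 for Lif, and from 0.949 to 0.996 for Osm with the neutrophil score.

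Whether the replicate numbers pair the mice cannot be told from these values, since each deviation is from a mean of 3 libraries. Deviations of same-numbered libraries had r of 0.376, -0.306 and -0.222, and those of unlike-numbered libraries ran from -0.382 to 0.449. Il6, Stat3, Socs3 and the neutrophil score fell from replicate 1 to 2 to 3 in both genotypes. The other genes of the group did not do so in both, and the cause of this order was not tested. With the replicate block, 0 genes of the group were called at either level, and 591 genes of the table were at an unadjusted p below 0.05. At this depth Il6, Osm and Lif rest on 1 to 42 reads a library.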
